A study of Mus musculus with 4 samples.

Results

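SB203580, a cell-permeable inhibitor of the p38 MAPK, was compared with no treatment in MCT cells, a murine kidney tubule epithelial line, by an RT-PCR array of nephrotoxicity genes. All 84 genes of the array other than the reference gene Actb were taken, in 2 of the 4 samples of the series. The untreated sample received no drug and is not described as a vehicle control, and the SB203580 sample received 10 μM. The other 2 samples, given as a background for single genes, received CsA, a calcineurin inhibitor, at 10 μg/ml or 11R-VIVIT, a cell-permeable peptide inhibitor of NFAT, at 1 μM. All cells grew in DMEM with fetal serum. For SB203580 the study's methods state an exposure of 24 h in some experiments, and a longer one for kinase inhibitors in its screen. The exposure of the array sample itself is not given there. There was 1 sample per condition and 1 value per gene, so no difference below carries a replicate error or a test.

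p38 MAPKs are serine/threonine kinases switched on by cell stress, inflammatory cytokines and osmotic or oxidative challenge. Once active they phosphorylate further kinases and transcription factors of the ATF and CREB families, and they stabilise the mRNA of several cytokines and chemokines. In tubular epithelium the pathway is known for its part in stress-induced gene expression, in cell cycle arrest and in the inflammatory and fibrotic response to injury. SB203580 competes with ATP at the active site of the alpha and beta forms of p38 and is known to inhibit some other kinases as well.

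The Ct is the number of PCR cycles needed for a gene's signal to become detectable, so a later Ct means less template, and Ct values of different genes are not compared as levels here. The reference Actb crossed at cycle 18.12 without drug and 17.81 with SB203580. The log2 change was taken as the untreated Ct less the SB203580 Ct, after subtracting the Actb Ct of the same sample from each. A Ct of 35 or later was taken as not detected, which was the case for 12 genes in untreated cells and 5 with SB203580. The 5 genes not detected with SB203580 were not detected in untreated cells either and have no change. For the other 7 a Ct of 35 stood in for the untreated value, which makes the change a lower bound. The remaining 72 genes were measured in both samples. The labelled tissue, the convoluted tubule, could be checked little. Of 9 proximal tubule markers the array holds Gatm and Slc22a6, with an untreated Ct of 32.83 and 33.03. Of 6 distal tubule markers it holds Egf (28.95), Klk1b3 (33.75) and Calb1 (36.08, not detected), and it holds none of the 3 leukocyte and 3 fibroblast markers.

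SB203580 raised 12 of the 79 genes with a value at least 2-fold (15.2%) and lowered 7 (8.86%), and 60 changed less. The lowered genes were Hmox1, CCnd1, Egf, Cd24, Cdkn1a, Sod2 and Btg2, which include regulators of the cell cycle and antioxidant enzymes. The raised genes were spread over more functions, and the largest rise was that of Gamt, an enzyme of creatine synthesis. The level was above that of untreated cells by any amount for 47 genes (59.5%), and the median log2 change over the 79 genes was 0.27. This balance depended on the reference. With the median of all genes that both samples detected in place of Actb, every log2 change was lower by 0.13, and 7 genes were raised and 8 lowered. With no reference gene every change was higher by 0.31, and 22 were raised and 5 lowered.

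**Figure D1:**
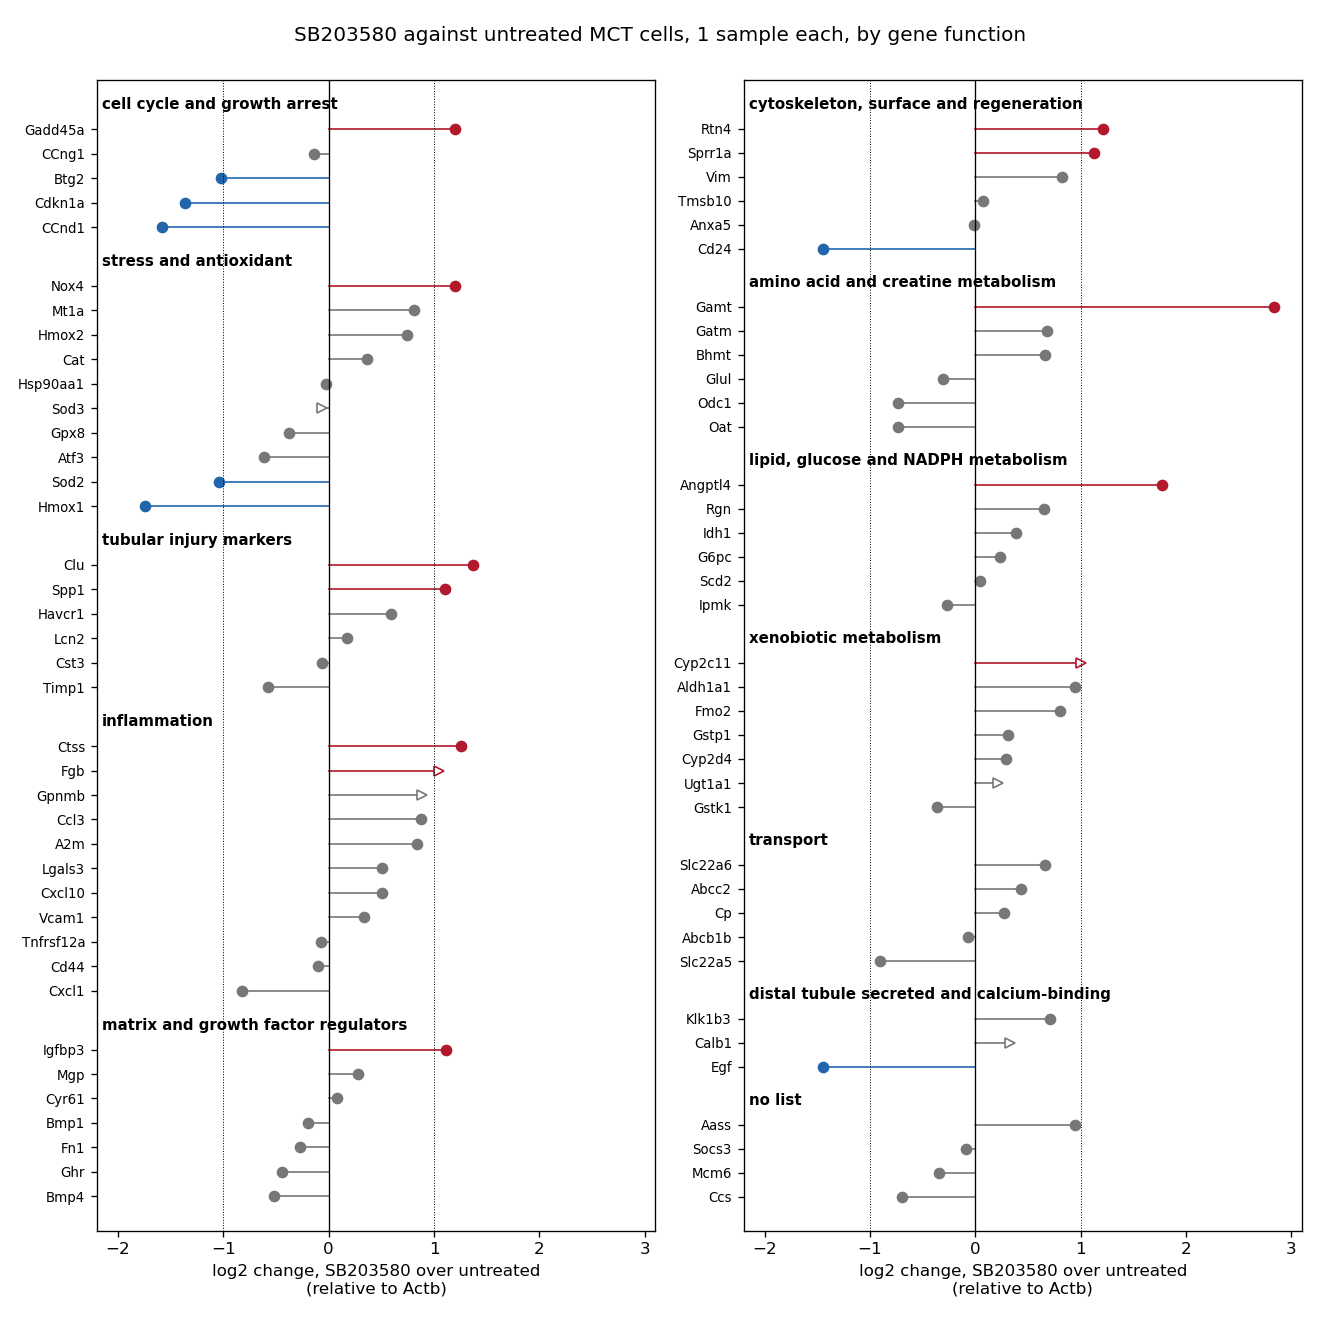
Log2 change of each named gene with a value, SB203580 over untreated and relative to Actb, ordered by function (1 sample each). Filled points are measured changes, open triangles are lower bounds, dotted lines mark 2-fold, red marks genes raised and blue genes lowered at least 2-fold, with Gamt at 2.84 and Hmox1 at -1.74 as the ends of the range.

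The raised and lowered genes also differed in how late they amplified. All 7 lowered genes had a mean Ct under 30 over the 4 samples, while 7 of the 12 raised genes had a mean Ct of 30 or later. This mean includes the SB203580 Ct. By the untreated Ct alone, 9 of the 12 raised genes and 0 of the 7 lowered genes stood at 30 or later. The limit of 35 keeps a gene with an untreated Ct close to or past it from being called lowered. Among the raised genes this held for Ctss, Igfbp3, Fgb and Cyp2c11, so a rise was the only call open to them. With no Ct limit the number of lowered genes was still 7. Among the 43 genes with a mean Ct under 30 the median log2 change was -0.07, and 18 lay above untreated cells. For the 36 later genes with a value the median was 0.65, and 29 lay above untreated cells. In the other treated samples, against the same untreated sample, the medians of the early and late genes were 0.24 and 0.15 with CsA, and -0.12 and 0.22 with 11R-VIVIT. The part of amplification cycle in the changes of late genes was not tested, and the number of late genes is therefore given with each gene group.

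**Figure D2:**
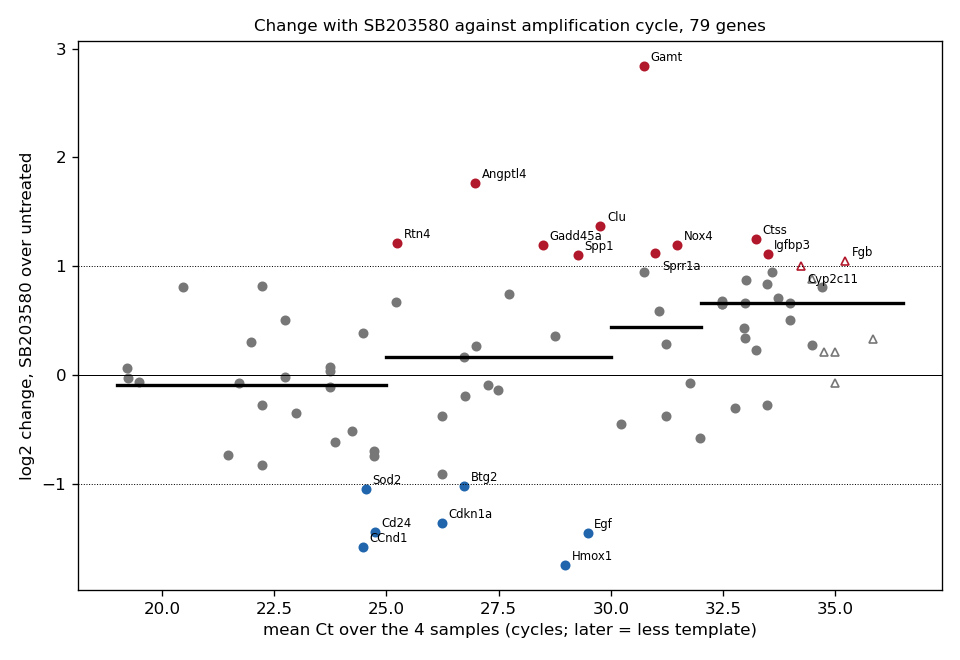
Log2 change with SB203580 against the mean Ct of each gene over the 4 samples, for 79 genes (1 sample per condition). Black bars are the medians of the genes with a mean Ct under 25 (-0.09), from 25 to 30 (0.17), from 30 to 32 (0.44) and of 32 or later (0.66), triangles are lower bounds, and all labelled blue points lie left of cycle 30.

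Of the 5 cell cycle genes, 3 fell at least 2-fold and 1 rose, where 8.86% of the array fell and 15.2% rose. Their median log2 change was -1.02, against 0.27 over all genes, and none of them had a mean Ct of 30 or later. Over all 43 genes with a mean Ct under 30, the median was -0.07, and 7 fell and 5 rose at least 2-fold. CCnd1, which encodes cyclin D1 and drives entry into the cell cycle, had a Ct of 24.40 in untreated cells, 23.17 with CsA, 24.65 with 11R-VIVIT and 25.67 with SB203580. It was thus latest with SB203580 and fell 2.99-fold (log2 change -1.58), while its log2 change was 0.95 with CsA and -0.25 with 11R-VIVIT. Cdkn1a encodes p21, an inhibitor of cyclin-dependent kinases. Its Ct was 25.56 in untreated cells, 26.34 with CsA, 26.42 with 11R-VIVIT and 26.61 with SB203580, so all 3 treated samples were later than the untreated one. The fall with SB203580 was 2.57-fold (log2 change -1.36), beside log2 changes of -1.06 with CsA and -0.85 with 11R-VIVIT.

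Btg2, an antiproliferative gene induced by p53, had a Ct of 26.77 in untreated cells, 26.09 with CsA, 26.60 with 11R-VIVIT and 27.48 with SB203580. Its log2 change of -1.02 lay just past the 2-fold threshold, and it was -0.71 with no reference gene. The SB203580 sample was the only one in which Btg2 lay below untreated cells. Gadd45a, a growth arrest gene induced by DNA damage, moved the other way. Its Ct was 29.44 in untreated cells, 27.25 with CsA, 29.32 with 11R-VIVIT and 27.93 with SB203580. The rise was 2.30-fold with SB203580 (log2 change 1.20) and the log2 change with CsA was 1.91, so Gadd45a was not highest with SB203580. The SB203580 log2 changes of CCng1, the p53 target cyclin G, and of Mcm6, a subunit of the replicative helicase outside the list, were -0.14 and -0.34.

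Regulatory sequence before the start site is shown for 3 of the 19 genes past 2-fold, since ATF, CREB and AP-1 factors act below p38. The motifs searched were TGACGTCA, the cAMP response element bound by CREB and ATF factors, and TGANTCA, the AP-1 element bound by Fos and Jun factors, on both strands, which these palindromes make the same. The letters of one motif cannot hold the other. Both motifs were chosen after the values were known. RefSeq promoter windows (GRCm38.p6), cut here to the 250 bases before each start, were used for 13 of the 19 genes, with 18 windows in all. Hmox1, CCnd1, Cd24, Angptl4, Clu and Cyp2c11 were not searched. Among the 13 searched genes, TGACGTCA was found before Btg2, and TGANTCA before Fgb and Sprr1a. Of all 32851 windows, 1.55% held the first motif and 6.75% the second, shares per window and not per gene. The window of Btg2, chr1:134079156-134079405 on the minus strand, has its match beginning 166 bases before the start. That of Sprr1a, chr3:92485882-92486131 on the minus strand, has a match at 146 and another at 116 bases. That of Gamt, the gene with the largest change, is chr10:80261013-80261262 on the minus strand and has no match. Each sequence runs 5′ to 3′ towards the start site with the matches in capitals.
Btg2: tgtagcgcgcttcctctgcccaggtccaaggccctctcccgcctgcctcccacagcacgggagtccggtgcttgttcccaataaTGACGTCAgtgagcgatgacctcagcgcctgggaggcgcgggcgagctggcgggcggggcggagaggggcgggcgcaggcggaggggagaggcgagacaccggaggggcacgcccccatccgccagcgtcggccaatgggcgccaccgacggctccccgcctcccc
Sprr1a: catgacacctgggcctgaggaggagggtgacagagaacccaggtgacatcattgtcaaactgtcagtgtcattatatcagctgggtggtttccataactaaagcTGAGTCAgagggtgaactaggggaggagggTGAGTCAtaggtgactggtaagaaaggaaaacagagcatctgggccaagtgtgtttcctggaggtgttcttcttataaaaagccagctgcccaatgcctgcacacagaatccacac
Gamt: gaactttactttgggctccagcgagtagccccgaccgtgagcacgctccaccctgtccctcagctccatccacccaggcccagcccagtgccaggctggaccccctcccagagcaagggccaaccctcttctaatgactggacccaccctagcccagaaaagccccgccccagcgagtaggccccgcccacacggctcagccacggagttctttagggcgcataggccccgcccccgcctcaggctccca

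Among the 11 stress and antioxidant genes, 10 had a value. Of these 2 fell and 1 rose at least 2-fold, where 8.86% of the array fell and 15.2% rose. Their median log2 change was -0.05, and 3 of the 11 were late. Hmox1, the inducible heme oxygenase that degrades heme under oxidative stress, had the largest fall on the array. Its Ct was 28.17 in untreated cells, 30.14 with CsA, 28.02 with 11R-VIVIT and 29.61 with SB203580. The fall was 3.34-fold (log2 change -1.74), beside -2.24 for CsA and 0.16 for 11R-VIVIT on the log2 scale, so the SB203580 and CsA samples stood below the other pair. Its constitutive relative Hmox2 lay on the other side. The Ct of Hmox2 was 27.93 in untreated cells, 28.25 with CsA, 27.90 with 11R-VIVIT and 26.87 with SB203580, a log2 change of 0.75 that made SB203580 the highest of the 4 samples.

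Sod2, the mitochondrial superoxide dismutase, had a Ct of 24.20 in untreated cells, 24.35 with CsA, 24.68 with 11R-VIVIT and 24.93 with SB203580. Its log2 change of -1.04 was near the threshold and was -0.73 with no reference gene. Ccs, the chaperone that loads copper onto cytosolic superoxide dismutase and belongs to none of the lists, had a log2 change of -0.70, and the extracellular Sod3 had a lower bound of -0.07 that gives no direction. Nox4, a NADPH oxidase that produces hydrogen peroxide, was the raised gene of this group. Its Ct was 32.15 in untreated cells, 31.25 with CsA, 31.88 with 11R-VIVIT and 30.65 with SB203580, which was the earliest of the 4. It rose 2.29-fold (log2 change 1.20). The other members changed less than 2-fold, among them catalase (Cat, 0.36), the stress-induced transcription factor Atf3 (-0.61), the peroxidase Gpx8 (-0.38) and the chaperone Hsp90aa1 (-0.03). Mt1a, a symbol found in RefSeq solely as a synonym, had a log2 change of 0.81, and Nqo1, a quinone reductase, was not detected in either sample.

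The array holds 10 genes that belong to the p38 pathway or whose induction p38 is known to promote, of which 3 were late. The array shares at 2-fold were 8.86% lowered and 15.2% raised. Of the 10 linked genes, 2 fell at least 2-fold with SB203580 (Hmox1 and Cdkn1a), 2 rose as much (Gadd45a and Spp1) and 6 changed less. Their median log2 change was 0.03, 5 lay above untreated cells and 5 below, where 59.5% of the array lay above. The early members had a lower median than the full list, as on the whole array, but early and late members overlapped. Over the 7 early members the median was -0.61, and the 3 late ones, Ccl3, Cxcl10 and Vcam1, all lay above untreated cells. The 2 largest rises of the list, those of Gadd45a and Spp1, were in members that are early by their mean Ct. That mean includes the SB203580 sample, and the untreated Ct of Spp1 was 30.01. Cxcl1, an early-amplifying neutrophil chemokine, had a Ct of 21.83 in untreated cells, 22.70 with CsA, 22.03 with 11R-VIVIT and 22.34 with SB203580. The log2 changes were -0.82 for SB203580 and -1.14 for CsA, which placed both below the untreated and 11R-VIVIT samples. For Atf3 the Ct was 23.45 in untreated cells, 22.94 with CsA, 25.32 with 11R-VIVIT and 23.75 with SB203580, so the lowest level was that with 11R-VIVIT. The fibronectin gene Fn1 had a Ct of 22.20 in untreated cells, 22.06 with CsA, 22.50 with 11R-VIVIT and 22.17 with SB203580, a spread of under 1 cycle, with a log2 change of -0.27.

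**Figure D3:**
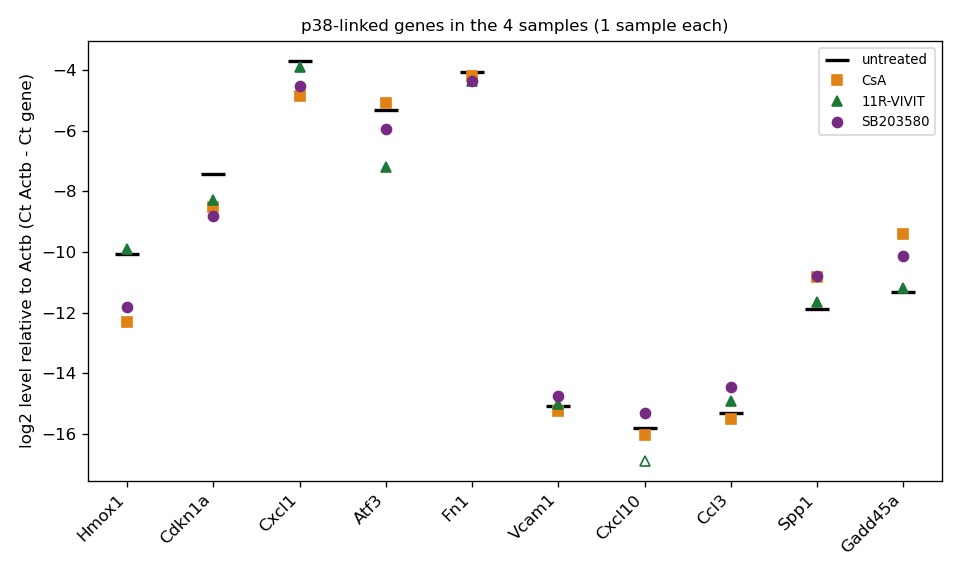
Level of the 10 p38-linked genes in each sample on a log2 scale relative to Actb (Ct of Actb minus Ct of the gene), 1 sample per condition, ordered by the change with SB203580. An open symbol is a level at the detection limit, the bar is the untreated sample, and the SB203580 circle lies below it from Hmox1 to Fn1 and above it from Vcam1 to Gadd45a.

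Among the 6 tubular injury markers, 2 rose at least 2-fold and none fell as much, where 15.2% of the array rose and 8.86% fell. Their median log2 change was 0.38, with 2 late members. Clu, the secreted chaperone clusterin, had a Ct of 30.002 in untreated cells, 30.39 with CsA, 30.33 with 11R-VIVIT and 28.32 with SB203580. It rose 2.59-fold (log2 change 1.37), while it was below untreated cells with CsA (-0.67) and 11R-VIVIT (-0.32), so the SB203580 sample stood apart from the other 3. Spp1, osteopontin, had a Ct of 30.01 in untreated cells, 28.68 with CsA, 29.77 with 11R-VIVIT and 28.59 with SB203580, a rise of 2.16-fold (log2 change 1.11), close to its log2 change of 1.06 with CsA. With the median of the detected genes as the reference, the change of Spp1 was 0.98. Havcr1, which encodes KIM-1, stood at 0.59 on the log2 scale with SB203580, beside -2.10 for CsA and 0.67 for 11R-VIVIT. The log2 changes of the remaining markers were 0.17 for Lcn2 (NGAL), -0.06 for Cst3 (cystatin C) and -0.58 for Timp1, an inhibitor of matrix proteases.

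Of the 11 inflammation genes, 2 rose at least 2-fold, near the 15.2% of the array, and none fell as much. Over the array 8.86% fell at least 2-fold. The median log2 change of the inflammation genes was 0.51, and 7 were late. Above untreated cells lay 8 of them, where 59.5% of the array did. Over the 4 early members, Lgals3, Tnfrsf12a, Cd44 and Cxcl1, the median was -0.09. Ctss, the lysosomal protease cathepsin S, had a Ct of 34.36 in untreated cells, 32.73 with CsA, 33.02 with 11R-VIVIT and 32.80 with SB203580. Its rise of 2.38-fold (log2 change 1.25) was thus shared by all 3 treated samples, with 1.36 with CsA and 1.35 with 11R-VIVIT, and these values come from the same untreated sample. Fgb, the fibrinogen beta chain, had a Ct of 36.32 in untreated cells, 34.65 with CsA, 36.28 with 11R-VIVIT and 33.65 with SB203580. Its level was at least 2.06-fold higher with SB203580 (lower bound 1.05).

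The Ct of Fgb with SB203580, 33.6479, is the same to 4 decimals as that of Fmo2, which is a neighbouring entry of the table. Among the 340 values of the Ct table it is the 1 value that occurs more than once. Whether it was measured for both genes was not tested. Without Fgb and Fmo2, 11 genes were raised and 7 lowered at least 2-fold.

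The chemokines and adhesion molecules changed less than 2-fold. Ccl3, a macrophage chemokine, had a Ct of 33.43 in untreated cells, 33.34 with CsA, 33.03 with 11R-VIVIT and 32.24 with SB203580, a log2 change of 0.88. Cxcl10, an interferon-induced chemokine, had a Ct of 33.93 in untreated cells, 33.86 with CsA, 35.03 with 11R-VIVIT and 33.11 with SB203580 (log2 change 0.51). For Vcam1, a leukocyte adhesion receptor, these were 33.18, 33.07, 33.15 and 32.54 in the same order (0.34). In each of these 3 genes SB203580 was the highest of the 4 samples, as it was for 24 of the 79 genes of the array (30.4%). All 3 have a mean Ct of 32 or later, where SB203580 was highest for 17 of the 26 genes with a value. A2m, a protease inhibitor of plasma, had a log2 change of 0.84 and Gpnmb, a glycoprotein of macrophages and injured epithelium, one of at least 0.89. Lgals3, galectin-3, had a log2 change of 0.51. Tnfrsf12a, which encodes the TWEAK receptor Fn14, had a Ct of 22.15 in untreated cells, 20.73 with CsA, 22.09 with 11R-VIVIT and 21.92 with SB203580. The SB203580 log2 change was -0.07, against 1.15 for CsA, and it was 0.23 with SB203580 when no reference gene was used. Cd44, the hyaluronan receptor, had a log2 change of -0.10.

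Among the 7 matrix and growth factor regulators with a value, Igfbp3 rose at least 2-fold and none fell as much. Over the array 15.2% rose and 8.86% fell. The median log2 change of these regulators was -0.19, and 4 of the 8 on the array were late. Igfbp3 binds insulin-like growth factors. It amplified late, with a Ct of 34.51 in untreated cells, 33.69 with CsA, 32.66 with 11R-VIVIT and 33.09 with SB203580. The SB203580 log2 change was 1.12, against 1.87 for 11R-VIVIT, the highest sample, and the SB203580 change was 0.98 with the median of the detected genes as the reference. The bone morphogenetic protein Bmp4 (-0.52), the growth hormone receptor Ghr (-0.45) and the procollagen protease Bmp1 (-0.19) lay below untreated cells, and Cyr61, a matricellular protein, was at 0.08. Mgp, matrix Gla protein, was at 0.28, and Igfbp1 was not detected in either sample.

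The 6 genes of the cytoskeleton, cell surface and regeneration held 2 that rose and 1 that fell at least 2-fold. The shares over the array were 15.2% raised and 8.86% lowered. The median log2 change of these 6 genes was 0.44, and 1 of them was late. Rtn4, the endoplasmic reticulum protein Nogo, had a Ct of 26.43 in untreated cells, 23.84 with CsA, 25.73 with 11R-VIVIT and 24.91 with SB203580. It rose 2.32-fold (log2 change 1.21), and all 3 treated samples were above the untreated one, with CsA the highest. Sprr1a, a protein of the cornified envelope whose upstream sequence is given above, had a Ct of 32.03 in untreated cells, 29.38 with CsA, 31.95 with 11R-VIVIT and 30.60 with SB203580. Its rise was 2.18-fold (log2 change 1.12), beside a log2 change of 2.38 with CsA. With the median of the detected genes as the reference it was 0.99. Cd24, a glycoprotein of the cell surface, had a Ct of 23.98 in untreated cells, 24.83 with CsA, 25.03 with 11R-VIVIT and 25.12 with SB203580. The fall was 2.72-fold with SB203580 (log2 change -1.44), and each of the other treated samples was also below the untreated one, with -1.12 with CsA and -1.03 with 11R-VIVIT. Vim, the intermediate filament vimentin, changed by 0.82 on the log2 scale with SB203580, against 2.47 for CsA. Tmsb10 (0.07), an actin-binding thymosin, and Anxa5 (-0.02), a phospholipid-binding annexin, stood near untreated cells.

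The metabolic genes form 3 lists. Of their 20 members with a value 3 rose and none fell at least 2-fold. The share raised was like that of the array (15.2%), and 8.86% of the array fell. The median log2 change of the metabolic genes was 0.35, and 14 of the 21 members on the array were late. In the list of amino acid and creatine metabolism, 4 of 6 members were late, and the median log2 change was 0.18 over all 6 and -0.74 over the early pair, Odc1 and Oat. Gamt, the one raised gene among them, catalyses the last step of creatine synthesis. Its Ct was 32.14 in untreated cells, 29.86 with CsA, 31.93 with 11R-VIVIT and 29.00 with SB203580, so that SB203580 was earliest and the SB203580 and CsA samples stood above the other pair. It rose 7.15-fold with SB203580 (log2 change 2.84), beside a log2 change of 2.01 with CsA. Gatm, the enzyme of the preceding step, had a log2 change of 0.68 and was also highest with SB203580. Bhmt, which remethylates homocysteine, was at 0.66. The other members lay below untreated cells, namely Odc1 (-0.73), which starts polyamine synthesis, Oat (-0.74), which breaks down ornithine, and Glul (-0.30), the glutamine synthetase. The Ct of Glul was 32.18 in both samples, so that its change is that of Actb. Aass, an enzyme of lysine breakdown outside the list, had a Ct of 34.30 in untreated cells, 33.47 with CsA, 33.59 with 11R-VIVIT and 33.04 with SB203580. Its change of 0.95 stood just under 2-fold, and SB203580 was the highest sample.

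In the list of lipid, glucose and NADPH metabolism, Angptl4 rose at least 2-fold and 6 of the 7 genes lay above untreated cells. Of these 7 genes, 3 were late. Over the array 15.2% rose at least 2-fold and 59.5% lay above untreated cells. Angptl4 is a secreted inhibitor of lipoprotein lipase. Its Ct was 29.07 in untreated cells, 23.66 with CsA, 28.20 with 11R-VIVIT and 26.99 with SB203580, and every treated sample was above the untreated one. The rise of 3.41-fold with SB203580 (log2 change 1.77) lay between the log2 changes with 11R-VIVIT (0.88) and CsA (5.14). Idh1, an isocitrate dehydrogenase that generates NADPH, had a log2 change of 0.39. The calcium-binding lactonase Rgn was at 0.65, the gluconeogenic phosphatase G6pc at 0.23, the desaturase Scd2 at 0.04 and the inositol phosphate kinase Ipmk at -0.27.

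Of the 8 xenobiotic metabolism genes 7 were late. Of the 7 with a value, 1 rose and none fell at least 2-fold, where 15.2% of the array rose and 8.86% fell. No gene of the array with a mean Ct of 30 or later fell as much. Cyp2c11, a cytochrome P450 symbol that RefSeq does not list for the mouse, had a Ct of 35.04 in untreated cells, 34.34 with CsA, 33.85 with 11R-VIVIT and 33.69 with SB203580. Its lower bound with SB203580 was 1.00, at the 2-fold threshold, and was 0.87 with the median of the detected genes as the reference. Aldh1a1, which makes retinoic acid, had a Ct of 31.13 in untreated cells, 29.84 with CsA, 32.07 with 11R-VIVIT and 29.88 with SB203580, a log2 change of 0.95 that stood just under 2-fold. Fmo2, a flavin monooxygenase, was at 0.81, with the Ct that it shares with Fgb. The glutathione transferases Gstp1 and Gstk1 were at 0.31 and -0.37 and Cyp2d4 was at 0.29. The glucuronosyltransferase Ugt1a1 had a lower bound of 0.21, and its relative Ugt1a6 was not detected in either sample.

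No transport gene reached 2-fold, where 15.2% of the array rose and 8.86% fell as much. Of the 6 with a value 4 lay above untreated cells, near the 59.5% of the array. Of the 7 on the array 5 were late, and the median log2 change was 0.35. Over the 2 early members, Slc22a5 and Cp, it was -0.32. The organic anion transporter Slc22a6 had a Ct of 33.03 in untreated cells, 34.08 with CsA, 32.77 with 11R-VIVIT and 32.06 with SB203580. For the efflux pump Abcc2 these were 33.04, 33.83, 32.74 and 32.30 in the same order. In both the SB203580 sample was highest and the CsA sample lowest, and the SB203580 log2 changes were 0.66 and 0.43. Slc22a5, the carnitine transporter, amplified earlier and lay on the other side, with a Ct of 25.97 in untreated cells, 26.17 with CsA, 26.21 with 11R-VIVIT and 26.57 with SB203580. Its log2 change was -0.90, and it was among the 14 of 79 genes (17.7%) that were lowest with SB203580. The drug efflux pump Abcb1b was at -0.07 and ceruloplasmin (Cp) at 0.27, and the vitamin D-binding protein Gc was not detected in either sample.

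Among the 3 distal tubule genes, Egf, the precursor of epidermal growth factor, fell 2.73-fold (log2 change -1.45), and the other 2 were late. Over the array 8.86% fell at least 2-fold. The Ct of Egf was 28.95 in untreated cells, 29.82 with CsA, 29.07 with 11R-VIVIT and 30.09 with SB203580, so that the SB203580 and CsA samples stood below the other pair. Klk1b3, a kallikrein with a late Ct, had a log2 change of 0.71, and Calb1, calbindin, was detected with SB203580 alone, at a Ct of 34.36 and a lower bound of 0.33. Of the array genes in none of the lists, Socs3, a feedback inhibitor of cytokine signalling, had a log2 change of -0.09, and Uchl1, a deubiquitinase, was not detected in either sample.

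The levels relative to Actb were also ranked over the 4 samples. Of the 12 genes raised at least 2-fold with SB203580, 5 were higher with SB203580 than in the other 3 samples, namely Gamt, Clu, Nox4, Spp1 and Fgb, against 30.4% of all genes with a value. Spp1 led the CsA sample narrowly, at a log2 level of -10.78 against -10.83. Of the 7 lowered genes, 6 were lowest with SB203580, against 17.7% of all genes, and Hmox1 was lower with CsA. These genes were chosen for their level in the SB203580 sample, so nothing is read from either rank count. The changes shown for the 3 treatments share the untreated sample.

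**Figure D4:**
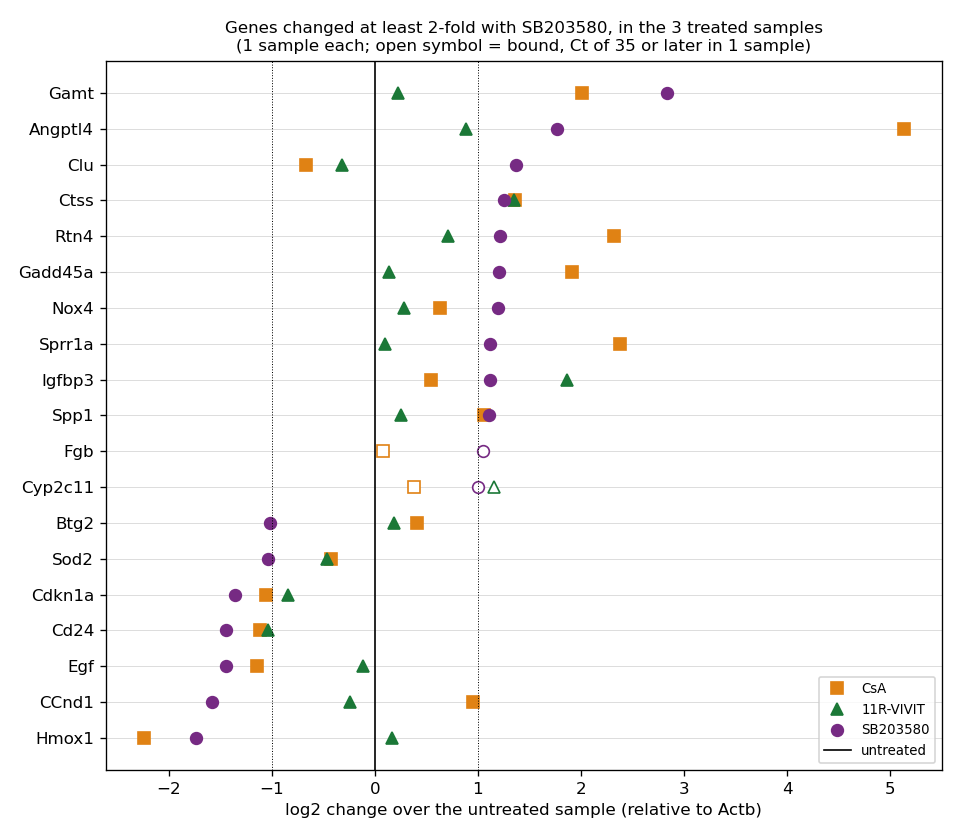
Log2 change over the untreated sample, relative to Actb, of the 19 genes changed at least 2-fold with SB203580, shown for the 3 treated samples (1 sample each). Open symbols are lower bounds, dotted lines mark 2-fold, and Fgb has no value with 11R-VIVIT, where neither sample detected it; the SB203580 circles of CCnd1 (-1.58) and Clu (1.37) lie apart from both other treatments.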

How the data were processed

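RNA of MCT cells was measured on an RT² Profiler PCR Array for mouse nephrotoxicity with SYBR green, after TRIzol extraction and reverse transcription of 1 μg RNA. The authors deposited 1 Ct per gene and sample, a threshold cycle without normalization and another scale than a count. Whether a Ct is a mean of wells is not given in the sources used here. Samples were assigned to conditions from their labels, and the columns from the sample titles. A second deposited table holds the authors' fold changes and was not used. Late cycles start from few molecules and are less precise, and with 1 sample per condition the spread is unknown.

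Log2 changes assume an amplification base of 2 and use Actb, the reference gene of the table used here. A Ct of 35 or later was set to 35. A gene was called at 2-fold. With 1 sample per condition no test was made. The function lists, the p38-linked list and the comparison were chosen with earlier results of these data known. Genes past 2-fold, those nearest to it and the p38-linked genes are given with all Ct values, others by their change or, for a few chosen after their values were seen (Hmox2, Tnfrsf12a, Slc22a6 and Abcc2), with Ct values too. Of the array genes, 3 are not reported here by name, while they remain in counts over the array and its lists. Of the 84 symbols, 77 matched RefSeq, 5 matched a synonym and 2 (Cyp2c11 and Cyp2d4) neither. The log2 change calculation was checked on simulated Ct values without noise, made from the untreated sample. That check does not cover the calls, ranks or counts. Calculations used Python 3.11.15, and figures matplotlib 3.10.9.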

Additional observations from a re-analysis of the deposited data

How the results depend on the processing

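Alternatives changed 1 choice at a time, and those restricted to early genes or without Fgb and Fmo2 were chosen after seeing the data. No gene past 2-fold changed sign in those that gave it a value, and a Ct limit of 32 gave none for Ctss, Cyp2c11, Fgb and Igfbp3. With the median of the detected genes as the reference, 7 genes were raised in place of 12 (Cyp2c11, Fgb, Igfbp3, Spp1 and Sprr1a fell below 2-fold) and the median over the array was 0.14, not 0.27. Without any reference gene, 22 were raised, Btg2 and Sod2 no longer passed 2-fold, the median was 0.58, and 9 genes in place of 14 were lowest with SB203580. With a Ct limit of 32, which leaves 56 genes with a value, the median was -0.071, with lower bounds taken at their value. There 7 genes in place of 24 were highest with SB203580. The list medians of inflammation, transport, distal and p38-linked genes were below 0 both there and among early genes, the distal one resting on Egf alone. That of amino acid metabolism was -0.74 among early genes. At the limit of 32 it was the lower bound of Gatm (-0.15), which gives no direction. Among the 43 genes with a mean Ct under 30, 5 were raised and the median was -0.073. By the untreated Ct alone, 3 of the raised genes stood under 30. At 1.5-fold, 29 genes were raised and 13 lowered, and at 3-fold 2 and 1. With an amplification base of 1.9, Btg2, Cyp2c11, Fgb and Sod2 fell below 2-fold, and with no Ct limit Calb1 and Gpnmb passed it. Of the genes under 2-fold, 12 turned from below to above untreated cells with no reference gene, Cyr61, Scd2 and Tmsb10 turned the other way with the median as the reference, and Sod3, a bound, turned to above with no Ct limit. The cause of these differences beyond the shift itself was not tested. No paired analysis was possible because each condition has 1 sample.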
